A study of Mus musculus with 4 samples.

Results

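The genes described here are 10 markers that have been used to pick out stem-like or progenitor cells in mammary tissue and mammary tumours: Cd44, Cd24a, Prom1, Ly6a, Procr, Kit, Lgr5, Sox9, Klf4 and Bmi1. They were taken by symbol from the 24411 genes listed in each deposited table. The tables come from 4T1 cells, a long-established mouse mammary carcinoma line grown in culture, and give RNA-seq levels as TPM (transcript abundance on a common scale), a unit adjusted for transcript length and library size. There are 2 control libraries and 2 libraries labelled CD95ko, with no drug or ligand treatment named in the labels. CD95 is the death receptor encoded by Fas. Cas9 was delivered by lentivirus with blasticidin selection, guide RNAs aimed at exon 9 of Fas were transfected, and single cells were sorted, so each CD95ko library stands for a clone grown from a single cell. The protocols name an untransduced culture and the Cas9-expressing culture beside the clones, and the sample titles do not say which of them is control 1 or control 2. Nothing in the labels says that the libraries of a group are separate cultures of the same cells, so the spread within a group includes the difference between lines or clones.

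Tumour cells with stem-like behaviour are usually enriched by combinations of surface proteins, and in breast carcinoma high CD44 with low CD24 is the best known of these. In the mouse mammary gland, Procr marks a population of multipotent cells, Kit marks luminal progenitors and Lgr5 marks part of the basal layer, while Sox9, Klf4 and Bmi1 are nuclear factors tied to progenitor state, reprogramming and self-renewal. None of these genes defines a stem cell alone, and a level averaged over a culture cannot separate a small strongly positive population from a weak level in every cell: fewer cells of a type and less RNA per cell cannot be told apart.

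The targeted gene was listed at 49.4 TPM in control 1, 39.2 TPM in control 2, 15.8 TPM in CD95ko 1 and 49.5 TPM in CD95ko 2. The library labelled CD95ko 2 was thus not below the controls: it was level with control 1 and above control 2. The group difference for Fas did not pass the test (log2 difference -0.63 ± 0.54 SE, limma adjusted p = 0.615). A TPM value for the whole gene cannot show whether exon 9 is missing. CD95ko 1 and CD95ko 2 are therefore used below as the names on the labels, and every direction refers to the libraries as labelled. Epithelial markers matched the labelled cell type, with all 9 of the list (Epcam, Cdh1, Krt7, Krt8, Krt18, Krt19, Cldn3, Cldn4 and Cldn7) present in each library and summed levels of 6287 to 6754 TPM in the controls and 10180 to 14210 TPM in the CD95ko libraries. Of the 10 leukocyte markers 9 were at 0 in all 4 libraries, Ptprc among them. The 1 leukocyte marker present was Csf1r. Of the 9 fibroblast markers 6 were at 0 throughout and the summed level was at most 4.52 TPM. Endothelial markers summed to at most 0.28 TPM, and erythroid and adipocyte markers were listed at 0.

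Of the 10 markers, 7 were above 0 in every library and 3 were listed at 0 in all 4. The 3 at 0 were Prom1, which encodes the membrane glycoprotein CD133, Kit, the receptor tyrosine kinase for stem cell factor, and Lgr5, a receptor for R-spondins that strengthens Wnt signalling. In GRCm38 they are protein-coding genes on chromosome 5 (Prom1, 43993620 to 44102032, and Kit, 75574916 to 75656722) and chromosome 10 (Lgr5, 115450311 to 115587780). Over the whole table, 46.9% of genes were at 0 in all 4 libraries. Sequencing depth is unknown from TPM, so these zeros give no upper limit on the transcript. The same 7 genes were the ones that reached the filter for testing (1 TPM or more in 2 or more libraries), which 45.7% of all listed genes met. Cd24a, Procr and Cd44 were the most abundant by mean TPM, followed by Sox9, Ly6a, Bmi1 and Klf4, as the plot of levels by library shows. In control 1 the order was Cd24a, Cd44, Sox9, Procr, Bmi1, Ly6a, Klf4. In CD95ko 2 it was Cd24a, Ly6a, Procr, Cd44, Sox9, Klf4, Bmi1. Several neighbours in this order could not be separated beyond their spread: in the controls Cd44 (87.6 ± 2.65 TPM, SD, n = 2), Procr (86.3 ± 18.7 TPM) and Cd24a (105.2 ± 26.0 TPM) overlapped, and so did Klf4 (13.0 ± 3.22 TPM) and Ly6a (12.4 ± 15.4 TPM).

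**Figure D1:**
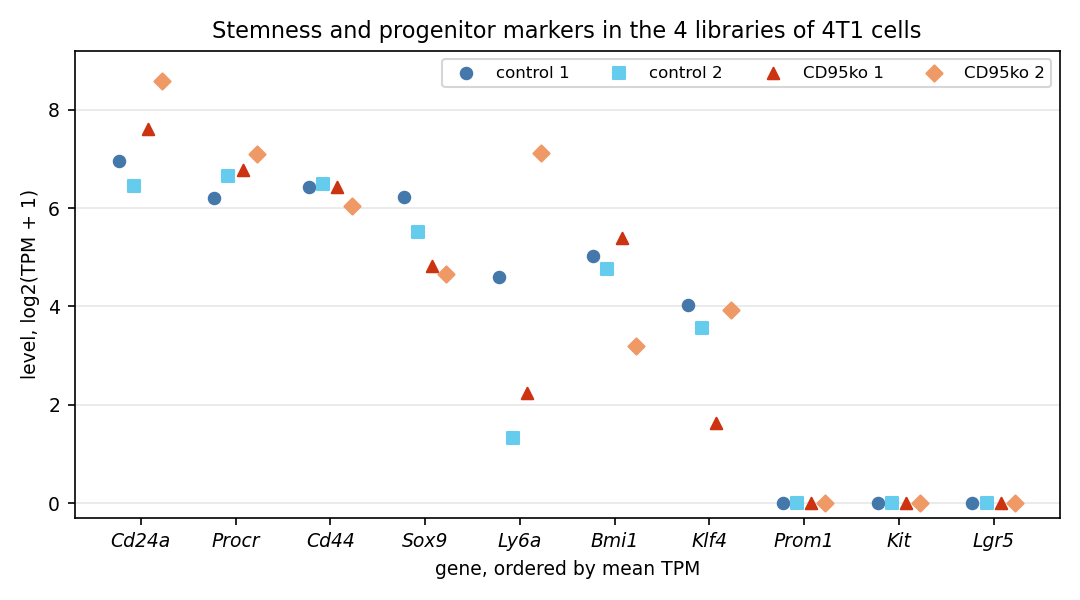
Levels of the 10 marker genes as log2(TPM + 1), with 1 point per library (blue circles control 1, light blue squares control 2, red triangles CD95ko 1, orange diamonds CD95ko 2) and genes ordered by mean TPM. Cd44 and Procr stay within a narrow band, Ly6a spans 1.52 to 139 TPM, and Prom1, Kit and Lgr5 lie at 0 in every library.

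The DNA just upstream of the transcription start annotated in RefSeq (GRCm38.p6) is shown for the 6 markers with a promoter entry there. It sets genes listed at 0 beside genes that were present. Each line gives the 100 bases before that start, 5′ to 3′ on the gene's own strand, with CpG dinucleotides in capitals. The gene positions given in the other paragraphs come from GENCODE, whose starts differ for some genes. By those positions the Procr and Prom1 stretches lie inside the gene, and the Kit stretch lies partly inside it. Cd24a, Ly6a, Sox9 and Lgr5 had no entry.
Kit, listed at 0, chr5:75574887-75574986, forward strand: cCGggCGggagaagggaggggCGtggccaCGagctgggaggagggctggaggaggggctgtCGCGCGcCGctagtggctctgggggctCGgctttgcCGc
Prom1, listed at 0, upstream of its outer start, chr5:44101737-44101836, reverse strand: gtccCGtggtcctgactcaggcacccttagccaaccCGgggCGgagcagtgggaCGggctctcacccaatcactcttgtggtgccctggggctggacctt
Klf4, chr4:55532476-55532575, reverse strand: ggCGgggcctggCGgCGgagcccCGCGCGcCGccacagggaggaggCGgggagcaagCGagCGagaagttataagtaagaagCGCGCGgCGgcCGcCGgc
Bmi1, chr2:18676918-18677017, forward strand: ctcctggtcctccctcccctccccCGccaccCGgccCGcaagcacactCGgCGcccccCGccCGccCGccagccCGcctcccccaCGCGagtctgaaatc
Procr, chr2:155751117-155751216, forward strand: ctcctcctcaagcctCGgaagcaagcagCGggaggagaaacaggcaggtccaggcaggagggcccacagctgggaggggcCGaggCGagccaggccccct
Cd44, chr2:102901666-102901765, reverse strand: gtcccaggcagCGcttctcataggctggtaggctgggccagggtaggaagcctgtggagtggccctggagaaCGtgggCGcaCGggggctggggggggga

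CpG were also counted over the full 250 bases upstream of the RefSeq start. Klf4 held 32, Bmi1 21, Kit 17, Procr 13 and Cd44 5. Prom1 held 9 at its outer start and 3 at its inner one. The windows of Procr, Prom1 and Kit include bases inside the gene by the GENCODE positions. Across the table, the median was 17 CpG for the 8549 windows of tested genes and 3 for the 7387 windows of genes at 0 in all 4 libraries. For Kit only the first start listed was counted, as for the genes across the table, while the other markers kept every start. At that start Kit carried as many CpG as the median tested gene although it was listed at 0. Cd44, present at 65.3 to 89.5 TPM, carried fewer than the lower quartile of tested genes, which was 11. The CpG count did not sort these 6 genes by level.

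The group comparison asks which transcripts differ between the CD95ko and the control libraries. In limma, fitted on log2(TPM + 1) of all 11167 tested genes, 0 of the 7 markers passed an adjusted p of 0.05, against 0.0537% of all tested genes (6 genes). At an unadjusted p under 0.05, 1 marker was higher in the CD95ko libraries, Cd24a, against 9.25% of all tested genes, and 1 was lower, Sox9, against 5.68%. Both CD95ko values lay above both control values for Cd24a and Procr (2 of 7, against 29.2% of all tested genes) and below them for Cd44 and Sox9 (2 of 7, against 18.3%). In no marker did all 4 pairs of a CD95ko and a control library differ over 2-fold one way (0 of 7), against 5.49% of all tested genes. The median log2 difference of the 7 was -0.23, and that of all tested genes was 0.13. The direction of that median did not hold, since it was 0.13 without CD95ko 1. Quantile normalization moved the median of all tested genes from 0.129 to 0.002, left all 7 directions as they were, and changed which groups did not overlap: Cd24a, Sox9 and Klf4 were then apart, and Cd44 and Procr were not. The share of all tested genes whose groups did not overlap was not counted under that setting.

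**Figure D2:**
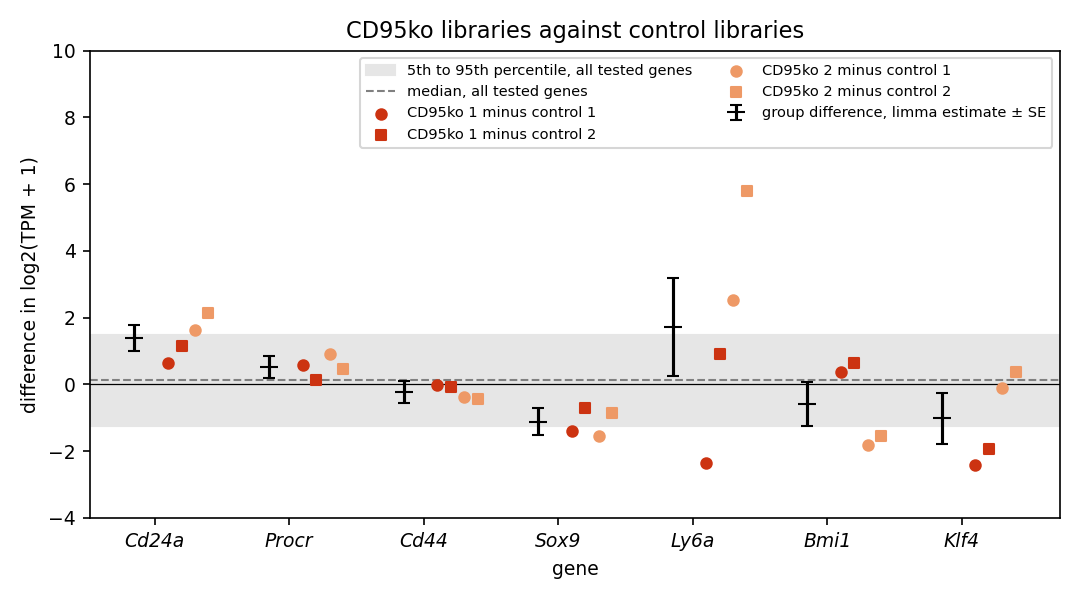
Differences in log2(TPM + 1) between CD95ko and control libraries for the 7 tested markers: black bars are limma group differences ± SE, coloured points are the 4 single pairs, the grey band runs from the 5th (-1.25) to the 95th percentile (1.49) of group differences over all tested genes, and the dashed line is their median. For Cd24a, Procr, Cd44 and Sox9 all 4 pairs lie on one side of 0, while Ly6a, Bmi1 and Klf4 have pairs on both sides.

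Cd44 encodes the main cell-surface receptor for hyaluronan. It was listed at 85.8 TPM in control 1, 89.5 TPM in control 2, 84.7 TPM in CD95ko 1 and 65.3 TPM in CD95ko 2. The groups were apart only by the small gap between CD95ko 1 and control 1, and the log2 difference was -0.23 ± 0.33 SE (limma adjusted p = 0.785). It was -0.42 without CD95ko 1 and -0.05 without CD95ko 2. Its highest and lowest library differed by 1.37-fold, the smallest such range among the 7. In GRCm38, the build of all positions given here, the gene lies on the reverse strand of chromosome 2 from 102811141 to 102901665, with up to 19 exons in the 9 annotated transcripts, and gene-level TPM does not tell its splice forms apart.

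Cd24a encodes a small, heavily glycosylated protein held at the membrane by a GPI anchor. It was listed at 123.5 TPM in control 1, 86.8 TPM in control 2, 193 TPM in CD95ko 1 and 383 TPM in CD95ko 2. Both CD95ko libraries lay above both controls, at 184% and 364% of the control mean, and CD95ko 2 stood 1.98-fold above CD95ko 1. The log2 difference was 1.39 ± 0.39 SE, with an unadjusted limma p of 0.00665 that did not pass after adjustment over all genes (adjusted p = 0.181). The size depended on the library: the difference was 0.89 without CD95ko 2 (limma adjusted p = 0.3) and 1.88 without CD95ko 1 (limma adjusted p = 0.00331). Without control 1 (1.64) or control 2 (1.13) the unadjusted p was no longer under 0.05. In the comparison of CD95ko 2 alone with the controls 9.26% of all tested genes passed, and the lone CD95ko library is assumed to vary as the controls do. The gene is on the forward strand of chromosome 10, from 43578284 to 43584265, and 5.91% of the 25-base stretches of its transcripts also occur in transcripts of other genes. Most of these are in Gm6212 (5.01%), which is not among the genes listed in these data.

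Because CD44 and CD24 are read together in breast tumour work, the ratio of Cd44 to Cd24a TPM was taken in each library. It was 0.694 in control 1, 1.03 in control 2, 0.438 in CD95ko 1 and 0.17 in CD95ko 2. The ratio was lower in both CD95ko libraries than in either control, and Cd24a supplied most of that range, since it varied 4.41-fold over the libraries and Cd44 1.37-fold. The ratio is a description of 4 cultures and does not give the share of CD44-high, CD24-low cells in any of them.

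Ly6a encodes Sca-1, a GPI-anchored surface protein known to be raised by interferon and used to mark progenitors in several mouse tissues. It was listed at 23.3 TPM in control 1, 1.52 TPM in control 2, 3.73 TPM in CD95ko 1 and 139 TPM in CD95ko 2. Each group thus held a high and a low library, and the groups overlapped. Control 1 stood 15.3-fold above control 2, and CD95ko 2 stood 37.3-fold above CD95ko 1. On the log2 scale both gaps were larger than those of 99.7% of the tested genes. The group difference of 1.72 ± 1.48 SE did not pass the test (limma adjusted p = 0.619), and it turned from 4.16 without CD95ko 1 (limma adjusted p = 0.00789) to -0.73 without CD95ko 2 (limma adjusted p = 0.833). Ly6a lies on chromosome 15 from 74994877 to 74998031 on the reverse strand. Its value carries an uncertainty from related genes, since 37.4% of its 25-base stretches occur in transcripts of other genes, most often Ly6c1 (23.7%). Ly6c1 was listed at 2.15 to 13.5 TPM. In the low libraries of Ly6a it was of similar size, at 3.57 TPM in control 2 and 2.15 TPM in CD95ko 1.

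The other Ly6 and uPAR family genes gave a partly similar picture. Of 19 found in the tables, 12 were at 0 in all libraries and 4 were tested. Ly6e, which encodes another interferon-induced GPI-anchored protein, was listed at 69.9 TPM in control 1, 12.4 TPM in control 2, 0.88 TPM in CD95ko 1 and 362 TPM in CD95ko 2. Control 1 and CD95ko 2 were therefore the high libraries of their groups for Ly6e as for Ly6a. Ly6c1 was highest in CD95ko 2 as well (13.5 TPM), with 3.25, 3.57 and 2.15 TPM in the other libraries. Plaur, the urokinase receptor, was listed at 83.0 and 162 TPM in the controls and 33.8 and 37.9 TPM in the CD95ko libraries (log2 difference -1.67, limma adjusted p = 0.147). Lypd3 was 3.08 and 16.0 TPM in the controls and 19.3 and 12.8 TPM in the CD95ko libraries. Of these 4, 1 was lower at an unadjusted p under 0.05, Plaur, against 5.68% of all tested genes. At that p 0 were higher, against 9.25% of all tested genes, and 0 passed over all genes.

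Procr encodes the endothelial protein C receptor, another GPI-anchored protein, which binds activated protein C. It was listed at 73.1 TPM in control 1, 99.5 TPM in control 2, 109 TPM in CD95ko 1 and 137 TPM in CD95ko 2. Both CD95ko libraries lay above both controls, but CD95ko 1 was only slightly above control 2. The log2 difference was 0.51 ± 0.34 SE (limma adjusted p = 0.506), and it ranged from 0.29 without control 1 to 0.73 without control 2. Procr is on the forward strand of chromosome 2, from 155751117 to 155755471. Of 13 genes of the protein C pathway around it, 8 were listed at 0 in all libraries, including Proc, which encodes protein C, and Thbd, thrombomodulin. The 3 tested genes were the thrombin receptor gene F2r, F2rl1 and the tissue factor gene F3. F3 was listed at 29.6 and 24.6 TPM in the controls and 20.9 and 60.1 TPM in the CD95ko libraries, and none of the 3 had an unadjusted p under 0.05.

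Sox9 encodes an HMG-box transcription factor known from mammary progenitors. It was listed at 73.7 TPM in control 1, 44.6 TPM in control 2, 27.1 TPM in CD95ko 1 and 24.4 TPM in CD95ko 2. Both CD95ko libraries lay below both controls, at 45.8% and 41.3% of the control mean, and they were close to each other while the controls differed 1.65-fold. The log2 difference was -1.13 ± 0.41 SE, with an unadjusted limma p of 0.0217 and an adjusted p of 0.256. It ranged from -1.48 without control 2 to -0.77 without control 1, where the unadjusted p was no longer under 0.05. Sox9 is on the forward strand of chromosome 11, from 112782224 to 112787760. Of the 17 other Sox genes listed, 10 were at 0 in all libraries, among them the closest relatives Sox8 and Sox10, and 6 were tested with none at an unadjusted p under 0.05. Sox4 was the most abundant of them, at 310 and 166 TPM in the controls and 249 and 291 TPM in the CD95ko libraries. Sox15 was listed at 28.8 and 16.4 TPM in the controls and 24.4 and 35.0 TPM in the CD95ko libraries, so its groups overlapped as well.

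Klf4 encodes a zinc finger transcription factor, best known as a reprogramming factor. It was listed at 15.3 TPM in control 1, 10.8 TPM in control 2, 2.08 TPM in CD95ko 1 and 14.1 TPM in CD95ko 2. CD95ko 1 was low, and CD95ko 2 lay between the controls. The log2 difference of -1.02 ± 0.76 SE did not pass the test (limma adjusted p = 0.56) and was 0.13 without CD95ko 1. The gap between the CD95ko libraries was larger than that of 95.6% of tested genes. Klf4 lies on chromosome 4 from 55527143 to 55532466 on the reverse strand. Of 14 other Klf genes on the family list, 8 were tested. At an unadjusted p under 0.05, 1 of these was higher (all tested genes, 9.25%) and 1 was lower (all tested genes, 5.68%). Klf6 was lower in both CD95ko libraries (126 and 59.6 TPM, against 205 and 282 TPM in the controls, log2 difference -1.46, limma adjusted p = 0.172). Klf3 was higher in both (43.1 and 30.5 TPM, against 18.9 and 12.1 TPM in the controls, log2 difference 1.21, limma adjusted p = 0.267). The remaining 6 had an unadjusted p of 0.05 or more, and Klf9 came closest to it (log2 difference -1.08, limma adjusted p = 0.369).

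Of 15 other reprogramming and pluripotency genes, 9 were listed at 0 in all libraries, including Pou5f1, Sox2, Lin28a and Lin28b, and Nanog was listed at 0.68 TPM in control 2 and at 0 elsewhere. The 3 tested genes were Myc, Klf5 and Klf2. At an unadjusted p under 0.05, 1 was higher, Klf2 (all tested genes, 9.25%), and 1 was lower, Myc (all tested genes, 5.68%). Myc was listed at 716 and 659 TPM in the controls, 311 TPM in CD95ko 1 and 106 TPM in CD95ko 2 (log2 difference -1.91 ± 0.46 SE, limma adjusted p = 0.147). Klf5 was 108 and 120 TPM in the controls and 97.5 and 59.9 TPM in the CD95ko libraries. Klf2 was 4.1 and 2.99 TPM in the controls and 14.4 and 9.44 TPM in the CD95ko libraries (log2 difference 1.49, limma adjusted p = 0.27).

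Bmi1 encodes a RING finger subunit of Polycomb repressive complex 1, which monoubiquitinates histone H2A. It was listed at 31.4 TPM in control 1, 26.1 TPM in control 2, 41.1 TPM in CD95ko 1 and 8.22 TPM in CD95ko 2. CD95ko 1 was the highest library and CD95ko 2 the lowest, 5.0-fold apart, with both controls between them. The log2 difference was -0.59 ± 0.67 SE (limma adjusted p = 0.715), and it was -1.68 without CD95ko 1 and 0.51 without CD95ko 2. Bmi1 is on the forward strand of chromosome 2, from 18677018 to 18686629. In other genes' transcripts 33.6% of its 25-base stretches also occur, nearly all in the annotated transcript of Gm5946. Gm5946 is not among the genes listed in these data. The 19 other subunit genes of the complex were all tested. Against 9.25% higher and 5.68% lower of all tested genes, 3 of these were higher at an unadjusted p under 0.05 (among them Cbx2 and Cbx8, which encode chromodomain subunits) and 1 was lower (Pcgf5, an alternative to Bmi1 in variant complexes), and 0 passed over all genes. No gene of this list was higher at that p without control 2. Cbx2 was listed at 4.75 and 4.17 TPM in the controls and 18.4 and 14.0 TPM in the CD95ko libraries (log2 difference 1.65, limma adjusted p = 0.214). Pcgf5 was 59.4 and 47.7 TPM in the controls and 14.4 and 25.5 TPM in the CD95ko libraries (log2 difference -1.43, limma adjusted p = 0.197). Pcgf2, the closest paralog of Bmi1, was 37.3 and 14.2 TPM in the controls and 30.8 and 55.1 TPM in the CD95ko libraries.

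For Ly6a, Klf4, Bmi1 and, on a smaller scale, Cd44 the CD95ko libraries differed from each other by more than the group difference, on the log2 scale. Between the CD95ko libraries 3 of the 7 markers were over 2-fold apart (Ly6a, Klf4 and Bmi1), where 23.3% of all tested genes were. Between the controls 1 of 7 was over 2-fold apart, Ly6a, where 14.4% of all tested genes were. The median absolute log2 difference of the 7 markers was 0.984 between the CD95ko libraries, against 0.518 for all tested genes, and 0.472 between the controls, against 0.445. CD95ko 2 held the highest value of 3 markers (Cd24a, Ly6a and Procr) and the lowest of 3 others (Cd44, Sox9 and Bmi1). The same count was not made over all tested genes, so it is not read as a trait of the markers.

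**Figure D3:**
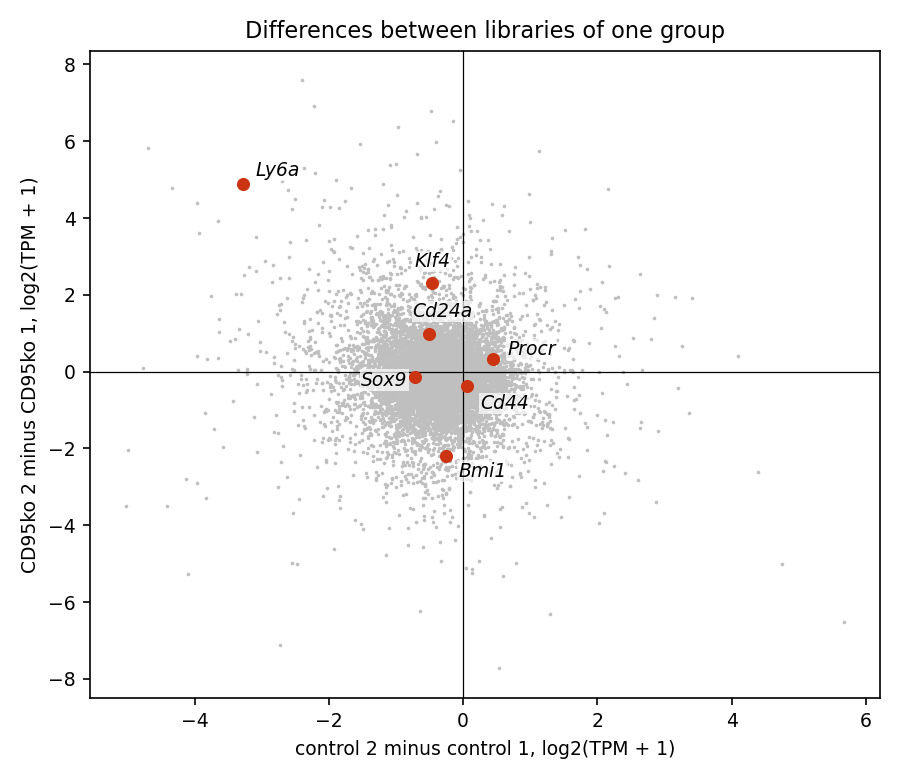
Difference between the controls (x axis) and between the CD95ko libraries (y axis) in log2(TPM + 1) for all 11167 tested genes (grey) and the 7 tested markers (red). Ly6a lies far from the origin on both axes (-3.27 and 4.89), Klf4 (2.30) and Bmi1 (-2.19) are apart on the CD95ko axis only, and Cd44, Procr, Sox9 and Cd24a lie within the central cloud.

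The genes around these markers were counted in the same way. The hyaluronan and CD44 list had 12 tested genes with a median log2 difference of 0.50, of which 4 were higher at an unadjusted p under 0.05 (all tested genes, 9.25%) and 0 were lower (all tested genes, 5.68%). The median was 0.77 without control 1 and 0.24 without control 2, and the 4 became 2 and 1. Nf2, which encodes the ERM-related tumour suppressor merlin, was listed at 38.4 and 15.7 TPM in the controls and 71.3 and 214 TPM in the CD95ko libraries (log2 difference 2.28 ± 0.59 SE, limma adjusted p = 0.158). Ezr, which encodes the CD44-actin linker ezrin, was 151 and 200 TPM in the controls and 354 and 448 TPM in the CD95ko libraries (log2 difference 1.19 ± 0.31 SE, limma adjusted p = 0.158). Spp1, the gene of the CD44 ligand osteopontin, was 686 and 736 TPM in the controls and 1862 and 883 TPM in the CD95ko libraries, and Tmem2, the gene of a protein described as a cell-surface hyaluronidase, was 7.38 and 3.86 TPM against 15.3 and 22.4 TPM. The hyaluronan synthase gene Has2 was listed at 4.17 to 9.99 TPM, and Has1 was at 0.

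Genes of R-spondin and Wnt reception were present in part beside Lgr5 at 0. Of 26 listed, 9 were at 0 in all libraries, including all 4 R-spondin genes and the Wnt feedback gene Axin2, and 16 were tested. The Lgr5 relatives were listed at 4.4 and 1.02 TPM (Lgr4) and 6.22 and 3.59 TPM (Lgr6) in the controls, and at 4.6 and 4.49 TPM (Lgr4) and 12.6 and 9.06 TPM (Lgr6) in the CD95ko libraries. Tcf7, a transcription factor of the Wnt pathway, had 2.72 and 1.79 TPM in the controls against 0 in each CD95ko library. It was the only gene of the 16 with an unadjusted p under 0.05 (limma adjusted p = 0.302). Of all tested genes, 5.68% were lower and 9.25% higher at that p. The median of the 16 was 0.52, and it was 0.20 without CD95ko 2 and 0.06 without control 2.

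Around Kit, 11 of 13 genes were tested, of which 2 were higher at an unadjusted p under 0.05 (all tested genes, 9.25%) and 0 were lower (all tested genes, 5.68%). Kitl, which encodes the Kit ligand, was listed at 4.93 and 3.53 TPM in the controls and 2.84 and 0.59 TPM in the CD95ko libraries. Csf1r, the related receptor for colony-stimulating factor 1, was 1.22 TPM in control 1, 0 in control 2, 22.2 TPM in CD95ko 1 and 5.07 TPM in CD95ko 2 (limma adjusted p = 0.164), with the pan-leukocyte marker Ptprc at 0 in all 4. Lyn, a Src family kinase, was 8.42 and 9.81 TPM in the controls and 25.1 and 29.5 TPM in the CD95ko libraries (log2 difference 1.48, limma adjusted p = 0.204). The median of the 11 was 0.22, and it ranged from -0.03 without CD95ko 1 to 0.49 without control 1.

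Of 30 other markers used to enrich stem-like tumour cells, 8 were at 0 throughout and 18 were tested, with a median of 0.41. Of the 18, 4 were higher at an unadjusted p under 0.05 (all tested genes, 9.25%) and 1 was lower (all tested genes, 5.68%). The median was 0.66 without CD95ko 1, 0.28 without CD95ko 2, 0.41 without control 1 and 0.38 without control 2. Prom2, a relative of Prom1, was listed at 6.14 and 1.84 TPM in the controls and 32.9 and 75.7 TPM in the CD95ko libraries (log2 difference 3.50 ± 0.63 SE, limma adjusted p = 0.0804). Epcam, the epithelial adhesion molecule, was 179 and 166 TPM in the controls and 531.5 and 565 TPM in the CD95ko libraries (log2 difference 1.67 ± 0.28 SE, limma adjusted p = 0.0676). Notch3 was 0.15 and 0.32 TPM in the controls and 3.28 and 5.25 TPM in the CD95ko libraries, and its ligand gene Jag2 was 9.03 and 13.1 TPM against 1.16 and 5.64 TPM. Of the aldehyde dehydrogenase genes read by stem-cell assays, Aldh1a3 was listed at 0 in all libraries and Aldh1a1 at 0.8 TPM in CD95ko 1 and 0 elsewhere. Among the integrins of mammary stem-cell sorting, Itgb1 was listed at 363 to 506 TPM and Itga6 at 21.9 to 34.9 TPM, and Itgb3 reached at most 2.79 TPM.

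Luminal and basal markers give the mammary context of these values. Of 10 tested luminal markers 5 were higher at an unadjusted p under 0.05 (all tested genes, 9.25%) and 0 were lower (all tested genes, 5.68%), and 0 passed the adjusted threshold. The median was 0.86, and it was 1.61 without CD95ko 1 and 0.49 without CD95ko 2. The number higher at that p fell when either control or CD95ko 2 was left out, and it rose without CD95ko 1. Robust eBayes, an alternative setting, passed 4 genes of all the lists: Krt19, Epcam, Prom2 and Vim. Krt19 was listed at 189 and 209 TPM in the controls and 751 and 859 TPM in the CD95ko libraries (limma adjusted p = 0.0594), and Krt8 at 537 and 570.5 TPM against 1047 and 1722 TPM (limma adjusted p = 0.147). Foxa1, a luminal transcription factor, was 1.12 and 0.41 TPM in the controls and 4.95 and 5.18 TPM in the CD95ko libraries. Cd14, a luminal progenitor marker, had 12.0 TPM in control 1, 4.13 TPM in control 2, 12.9 TPM in CD95ko 1 and 102 TPM in CD95ko 2. Elf5, the luminal progenitor transcription factor, was at 0 in all libraries. Of 15 basal genes 5 were at 0 in all libraries, including Krt5, Trp63 and Snai2, and 5 were tested. Of the 5 tested, 2 were lower at an unadjusted p under 0.05 (all tested genes, 5.68%) and 0 were higher (all tested genes, 9.25%). The median of the 5 was 0.29, and -1.55 without CD95ko 2. Vim was 652 and 629 TPM in the controls and 92.9 and 211 TPM in the CD95ko libraries (limma adjusted p = 0.0847), and Krt17 was 1.67 and 26.6 TPM against 1.11 and 0 TPM. The other 3 had positive differences that did not pass, of 0.61 for Krt14, 0.54 for Egfr and 0.29 for Itga6. Krt14, a basal keratin gene, was listed at 24.1 and 20.6 TPM in the controls, 6.98 TPM in CD95ko 1 and 158 TPM in CD95ko 2.

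**Figure D4:**
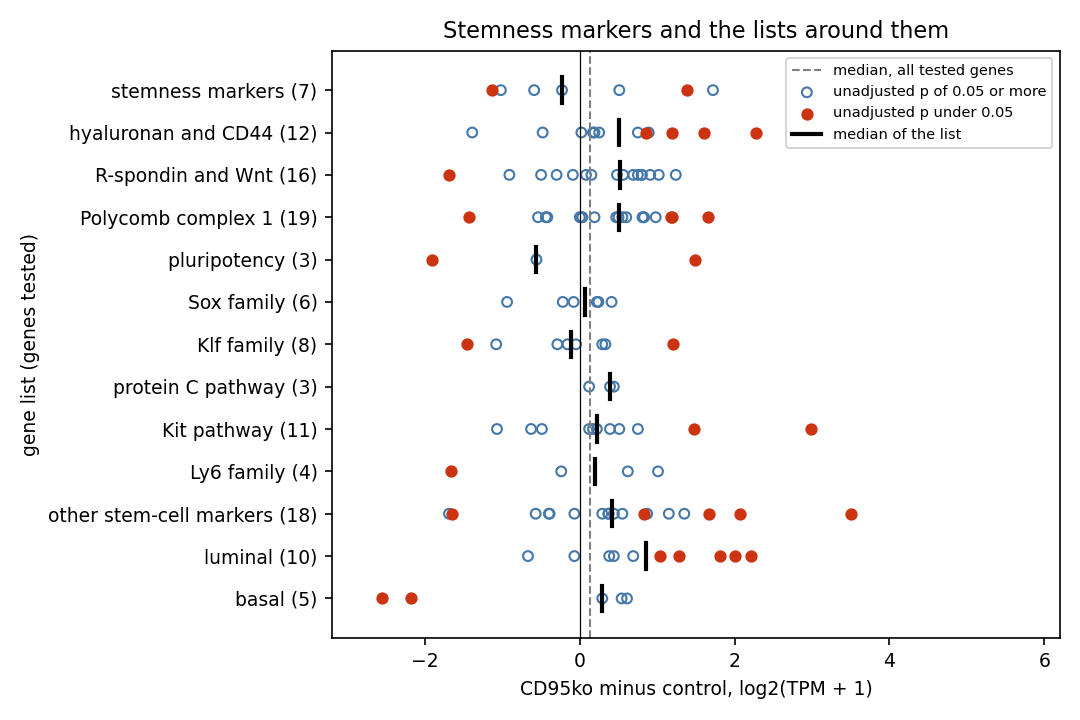
Group differences in log2(TPM + 1) for the tested genes of each list (open blue, unadjusted p of 0.05 or more; filled red, unadjusted p under 0.05), with the list median as a black bar and the median of all tested genes as a dashed line. The luminal list has 5 filled points and all lie to the right, while the 7 stemness markers have 1 on each side.

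The tested genes whose levels over the 4 libraries ran most like each marker were found by the Euclidean distance between log2(TPM + 1) values centred on their mean. With 4 libraries and 11167 genes close matches are common, and no function is read from them. For Cd24a they were Os9 (distance 0.073; 41.4 and 28.9 TPM in controls 1 and 2, then 63.1 and 122 TPM in CD95ko 1 and 2) and Hpcal1 (0.085). For Sox9 they were Pcsk4 and Eno2, both at 0.13. For Cd44 they were Sik2 (0.034) and Abi1 (0.035), for Procr Ndufb10 (0.097) and Hist1h2bc (0.1), for Klf4 Gm5424 (0.21) and Bdkrb1 (0.35), and for Bmi1 Cdkl3 and Rnf139, both at 0.16. Ly6a had the most distant neighbours, Hist1h4f (0.71) and Postn (0.76). Postn, which encodes the matrix protein periostin, was listed at 6.31 TPM in control 1, 0.42 TPM in control 2, 1.01 TPM in CD95ko 1 and 79.1 TPM in CD95ko 2.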

How the data were processed

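The authors deposited 1 table per library that pairs gene symbols with TPM, per the file headers. Poly(A) RNA was fragmented, tailed, reverse transcribed by a SMART-seq2-derived method and amplified by PCR, per the labels' protocols. The submitters' processing notes name STAR 2.6.0, RSEM 1.3.0 and mm10, and the annotation is not given in the sources used here. TPM holds no read numbers, so depth is unknown and no counting interval could be given. An exact 0 is reported as listed at 0.

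Groups come from the sample titles. Genes with at least 1 TPM in at least 2 libraries (11167) were compared on log2(TPM + 1) with limma 3.58.1 in R 4.3.3 (eBayes with trend, two-sided, Benjamini-Hochberg over all tested genes, threshold 0.05). Fold changes on this scale understate those of weakly expressed genes. With 2 libraries against 2, p-values measure only the spread between these libraries, which may come from different lines or clones. Permuting the 4 libraries exactly gives a two-sided p of at least 0.333, so no gene could pass that way. Tested on simulated data for this comparison (11167 genes), the fit recovered 56.5% of 200 genes given a log2 change of 2. It recovered 97.5% of 200 given a change of 4. False calls were 11 of 124 at the change of 2 and 13 of 208 at the change of 4. The simulated noise was independent between genes and equal in both groups. In the data 23.3% of tested genes were over 2-fold apart between the CD95ko libraries and 14.4% between the controls, so recovery here may differ.

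The markers and the lists around them were chosen with earlier results of these data known. Named were Fas, all 10 markers, up to 4 genes per list with the smallest unadjusted p, fixed direct partners, and 2 genes of nearest pattern per tested marker. By this rule 1 more list gene qualified and is not reported here. A few further list members were named after their values were seen. Older symbols were looked up in RefSeq (GRCm38.p6). Positions, exons and shared 25-base stretches used GENCODE M21 (GRCm38, the genome that mm10 denotes). Alternatives were robust eBayes, eBayes without trend, a smaller pseudocount (0.1), testing unfiltered genes, quantile normalization, a block for the replicate number, and leaving out each library.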

Additional observations from a re-analysis of the deposited data

How the results depend on the processing

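In the 6 settings with all 4 libraries, no tested marker turned direction or crossed the adjusted threshold (42 of 42 values). The number of markers past that threshold, 0 as reported, ranged from 0 to 2 when a library was left out, and the 2 were Cd24a and Ly6a without CD95ko 1. At an unadjusted p under 0.05 the number, 2 as reported, ranged from 0 to 4, the highest without CD95ko 1, where 2713 of all 11167 tested genes had such a p. The number over 2-fold apart in every pair was 0 as reported. It was 1 (Sox9) under quantile normalization and 0 in the other settings with all 4 libraries. With a library left out it ranged from 1 to 3, but only 2 pairs then remained, which is an easier criterion. The share of all tested genes over 2-fold apart was not counted in these settings. A fit without a library assumes that the lone library left in a group varies like the other group. Over such fits the difference ranged from -0.73 (without CD95ko 2) to 4.16 for Ly6a, from -1.68 to 0.51 (without CD95ko 2) for Bmi1, from -2.17 to 0.13 (without CD95ko 1) for Klf4 and from -1.42 to 0.16 (without CD95ko 1) for Fas, so these 4 turned direction.

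Over all tested genes, 6 passed as reported. The number was 52 with robust eBayes and 0 in 4 other settings: the smaller pseudocount, unfiltered genes, eBayes without trend and quantile normalization (1553, 1636, 1531 and 1862 genes at an unadjusted p under 0.05). With a library left out it ranged from 0 to 1034, the highest without CD95ko 1, and it was 194 without CD95ko 2. The cause was not tested. When the replicate block was added, 2 genes passed and no marker did. Libraries with the same number did not deviate together (r = -0.0814 across 11167 genes), so the numbers were not taken as pairs. Of the 119 other tested genes on the lists, 0 passed as reported, 4 with robust eBayes, 19 without CD95ko 1 and 7 without CD95ko 2. The zeros of Prom1, Kit and Lgr5 set no limit, since TPM keeps no depth.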
